A study of Mus musculus with 9 samples.

Results

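The first 4 weeks of high-fat diet (HFD) in mice without a history of obesity were examined by comparing the library CCH with the library C, across all cell classes of epididymal adipose tissue. The members were chosen by library and by depth alone: every barcode of CCH and C in which 500 to 3000 genes were detected and no more than 40000 UMIs (unique molecular identifiers, 1 per RNA molecule caught). This gave 18934 nuclei, 7287 from CCH and 11647 from C, of 91687 barcodes in all 9 libraries, of which 76356 passed the same limits. After removal of doublets and of clusters with mixed markers, 7009 nuclei of CCH and 10577 of C were assigned to clusters, and shares are of these. Each library was made from nuclei of epididymal fat pooled from 5 male C57BL/6J mice, so that 1 library stands for 1 pool. The mice of C were 18 weeks old and had eaten chow. The mice of CCH were 30 weeks old, with 26 weeks of chow followed by 4 weeks of HFD. The chow of C was, by the methods of the study, a low-fat diet, whereas mice of the older groups were moved to another standard chow. CCH therefore differed from C in diet, in 12 weeks of age and in chow history, and these cannot be told apart between 2 libraries. Chow libraries of 26 weeks (CC) and 39 weeks (CCC), which were sequenced in another set (S019, against S075 for C and CCH), are given beside the main results, together with H (18 weeks old, 12 weeks of HFD) and HCH (30 weeks old, 12 weeks of HFD, 8 weeks of chow and 4 weeks of HFD) where they help.

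White adipocytes store fatty acids as triglyceride, either taken up from the blood or built from glucose by de novo fatty acid synthesis, in which the acetyl-CoA carboxylases make the first committed intermediate. Around them lie fibroblast-like progenitors that lay down collagen and form new adipocytes, a capillary endothelium that hands fatty acids across, a mesothelial cover and resident macrophages. Long overfeeding is known to enlarge adipocytes, to lower their lipogenic genes and to bring in macrophages that take up lipid, the lipid-associated macrophages marked by Trem2, Gpnmb and Cd9.

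There was 1 library on each side, so no comparison below has a test or an error between mice. Intervals are 95% and cover counting error only. A gene was called higher or lower where its CPM (UMIs of a gene per 1000000 UMIs of that cell class in a library) differed at least 2-fold, among genes with a mean of at least 20 CPM and 50 UMIs over both libraries. C held 49693033 UMIs and CCH 61395565, and the median nucleus within the limits had 2395 and 3240 UMIs. The limit of 3000 genes removed 9.62% of the barcodes of C and 24.1% of those of CCH. The libraries shared 26 barcodes, 0.357% of the smaller, against 11 to 39 for C and each other library. Class markers were checked against the names: all 12 adipocyte markers were highest in the adipocyte-like nuclei of C and 11 of 12 in CCH, and for macrophage-like nuclei it was 14 and 13 of 15. The fit was weaker for progenitor-like nuclei (9 of 12 in both libraries), dendritic cell-like nuclei (8 and 7 of 10) and epithelial-like nuclei (8 of 12 in both). In the last, the 12 epithelial markers summed to 582 CPM in C and 460 in CCH, under the 2889 and 1973 CPM of the adipocyte markers. The summed level of the 12 adipocyte markers in macrophage-like nuclei was 2801 CPM in C and 1607 in CCH, in progenitor-like nuclei 3073 and 1899, and in adipocyte-like nuclei themselves 46335 and 27862. The macrophage-like level was 6.04% of the adipocyte-like level in C, 5.77% in CCH, 8.81% in CCC and 24.7% in CC. CC nonetheless serves below as 1 of the older chow libraries in these classes.

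Macrophage-like and progenitor-like nuclei made up more of CCH than of C, and adipocyte-like nuclei less, but the last of these was within counting error of 0 without the gene limit. Macrophage-like nuclei were 13.96% of the nuclei of C (95% binomial interval, Clopper-Pearson, in the plot of shares) and 21.73% of those of CCH, a difference of 7.76 points (6.60 to 8.94, Newcombe), and CCH lay above CC and CCC too, whose shares were 11.34% and 8.68%. Progenitor-like nuclei made up 21.30% and 26.92%, a difference of 5.62 points (4.33 to 6.92), with 22.43% as the highest chow share. These shares moved with the clustering: when nuclei were clustered before the upper gene limit was applied, the progenitor-like share within it was 26.9% in CCH and 21.5% in C, but 24.1% for CC and 24.3% for CCC. Adipocyte-like nuclei were 21.17% in C, 25.15% in CC and 8.95% in CCH, 12.22 points fewer than in C. Without the upper limit on genes they were 25.2% in C and 24.8% in CCH, beside 27.9% in CC and 25.0% in CCC, and the difference from C was -0.45 points (-1.65 to 0.74). Macrophage-like nuclei then differed by 4.23 points (3.23 to 5.24) and progenitor-like nuclei by 2.41 (1.29 to 3.54).

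The limit took unequal parts of the adipocyte-like nuclei. Of these, 72.1% (70.2 to 74.0) had over 3000 genes in CCH, whereas for CCC it was 51.2% (47.7 to 54.7), for CC 33.3% (30.7 to 36.0) and for C 23.0% (21.5 to 24.6), with medians of 11469, 7949, 6360 and 6183 UMIs before the limit. In CCH, adipocyte-like nuclei were 82.2% of all nuclei over the limit, against 65.2% in C. Between 0.703% and 5.13% of the macrophage-like, progenitor-like, endothelial-like and mesothelial-like nuclei of either library lay over it. The share of adipocyte-like nuclei within the limit is thus a share of the shallower adipocyte nuclei.

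**Figure D1:**
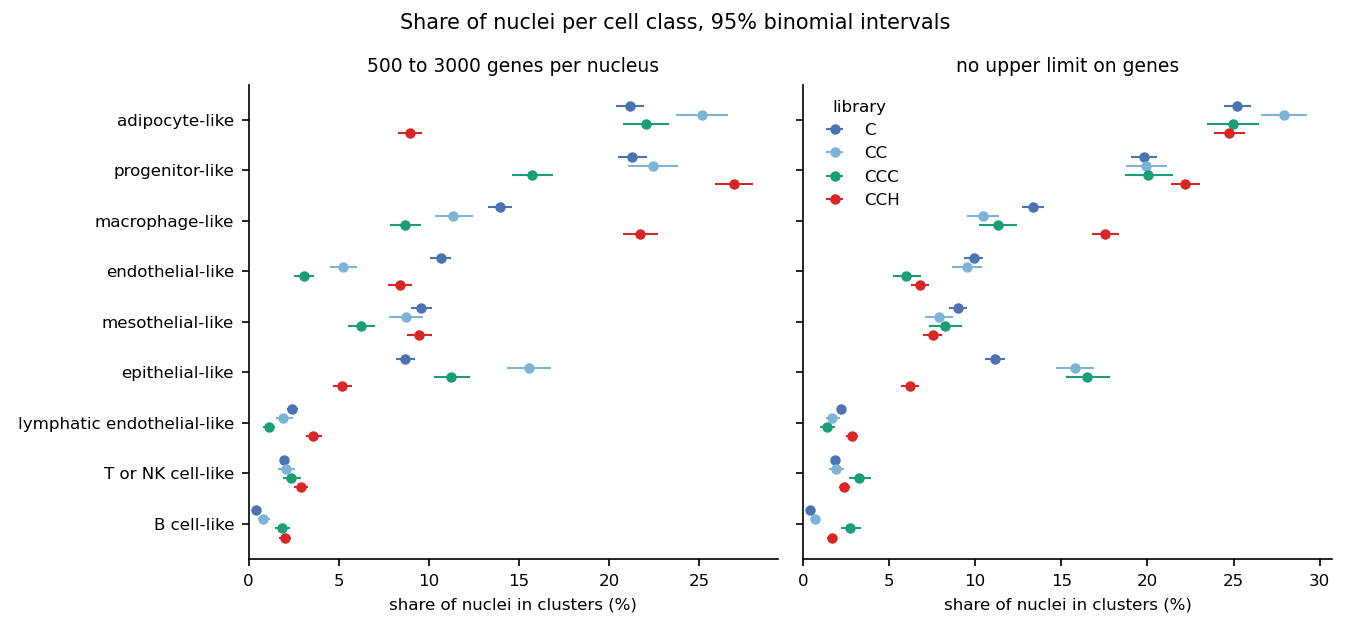
Share of nuclei (%) per cell class in CCH and the 3 chow libraries, with 95% binomial intervals as bars, within 500 to 3000 genes on the left and with no upper limit on genes on the right. The adipocyte-like share of CCH lies at 8.95% on the left and at 24.8%, beside the chow libraries, on the right, while the macrophage-like share of CCH is the highest on both sides.

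Among the other classes, the differences within the gene limit were smaller, whereas without it epithelial-like nuclei differed by -4.93 points and endothelial-like nuclei by -3.13. B cell-like nuclei were 0.435% in C and 2.01% in CCH, next to 1.86% in the oldest chow library, and T or NK cell-like nuclei 1.98% and 2.88%. Lymphatic endothelial-like nuclei were 2.41% in C and 3.60% in CCH, above all 3 chow libraries. Endothelial-like nuclei were 10.66% in C and 8.39% in CCH, and within the limit CCH was 3.15 and 5.34 points above CC and CCC. The limit removed 54.9% of the endothelial-like nuclei of CC, and with no limit CC had 9.51%, above the 6.78% of CCH, while CCC had 6.01%. Mesothelial-like nuclei differed by -0.10 points (-0.98 to 0.79), and by -1.47 (-2.22 to -0.70) with no gene limit. Epithelial-like nuclei were 8.71% in C and 5.19% in CCH, and smooth muscle or pericyte-like nuclei 2.82% and 1.34%. A lower share of 1 class cannot be told apart from more nuclei of the others.

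In adipocyte-like nuclei, the CCH library was set apart from C by lower carboxylases and growth hormone targets and by higher levels of some matrix genes and of the natriuretic clearance receptor, while the lipolytic, lipid droplet and adipogenic lists held no call within the gene limit. Of 6243 genes that passed the filter, 207 (3.32%) were at least 2-fold higher in CCH and 97 (1.55%) lower, with a median log2 ratio of 0.06 over all. Only 70 of the 207 (33.8%) also lay above both older chow libraries, and 45 of the 97 (46.4%) below both. For the rest, at least 1 of the older chow libraries lay as far from C as CCH did, or farther. Of the 889 adipocyte-like nuclei of CCC, 290 lay in a cluster with 3 nuclei of CC and 0 of C and CCH. The median adipocyte-like nucleus of CCC had 3049 UMIs, against 5199 in C and 5644 in CCH. How far this cluster moved the levels of CCC was not tested. The 627 nuclei of CCH and 2239 of C held 3288520 and 11539324 UMIs. Without the gene limit 206 of the 207 higher and 97 of the 97 lower genes kept their direction, and 166 and 89 remained 2-fold. In all, 257 genes were then higher and 146 lower, of 6059 tested.

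In de novo fatty acid synthesis, both acetyl-CoA carboxylases were lower in CCH than in C and, within the gene limit, most other members differed little. Of 16 tested members of the list, 2 were lower, 1 was higher and 13 were between, with a median log2 ratio of -0.12. Of all genes, 1.55% were lower and 3.32% higher. Without the gene limit 2 members were lower and 2 higher (median -0.10). In adipocyte-like nuclei over the limit alone, 2 were lower and 4 higher (median 0.18). Acaca, acetyl-CoA carboxylase 1, stood at 3791 CPM in C and 915 in CCH, 4.14-fold lower (log2 -2.05, -2.1 to -2.0). Acacb, the mitochondrial isoenzyme whose product blocks entry of fatty acids for oxidation, stood at 1626 and 602 CPM (log2 -1.43, -1.5 to -1.4). The older chow libraries were as low as CCH: Acaca was at 1084 CPM in CC and 719 in CCC, and Acacb at 592 and 332, so that C alone was high. Fatty acid synthase, Fasn, was at 53.6 CPM in C, 122 in CC, 98.7 in CCC, and CCH had 74.8. The desaturase Scd1 was at 763 and 725 CPM in C and CCH and the lipase-like Pnpla3 at 1410 and 1257. Of the regulators, Srebf1 (log2 -0.66) and Mlxipl, which encodes the glucose-sensing factor ChREBP (log2 -0.54), were lower by less than the 2-fold limit, and Insig1, which holds SREBP in the endoplasmic reticulum, was higher, at 19.8 CPM in C, 19.9 in CC, 28.3 in CCC, 40.4 in CCH and 197 in H.

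The promoters of Acaca, Acacb, Pnpla3 and Mlxipl, list members with high adipocyte CPM, are shown because SREBP and ChREBP act on lipogenic promoters. Scd1 had no window to show. The called Acaca and Acacb can be set beside Pnpla3 and Mlxipl, which were not called. Each sequence is the RefSeq window of 250 bases before to 50 after 1 annotated start, on the plus strand of GRCm38.p6, in lower case with matched motifs in capitals. Searched on both strands were the E-box CACGTG, the sterol element TCACNCCAC and the CCAAT box. Acaca lies at chr11:84195188-84195487, Acacb at chr5:114165268-114165567, Pnpla3 at chr15:84167566-84167865 and Mlxipl at chr5:135106641-135106940. The Acaca window lies inside the gene as GENCODE draws it (chr11:84129672-84401651), and so does that of Acacb (chr5:114146535-114250761), so each shows 1 of several starts.
Acaca: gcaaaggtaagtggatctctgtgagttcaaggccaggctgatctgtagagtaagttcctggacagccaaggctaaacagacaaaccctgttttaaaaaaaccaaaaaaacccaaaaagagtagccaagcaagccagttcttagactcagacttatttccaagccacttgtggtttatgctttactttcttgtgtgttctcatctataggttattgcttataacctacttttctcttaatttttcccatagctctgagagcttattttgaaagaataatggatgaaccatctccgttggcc
Acacb: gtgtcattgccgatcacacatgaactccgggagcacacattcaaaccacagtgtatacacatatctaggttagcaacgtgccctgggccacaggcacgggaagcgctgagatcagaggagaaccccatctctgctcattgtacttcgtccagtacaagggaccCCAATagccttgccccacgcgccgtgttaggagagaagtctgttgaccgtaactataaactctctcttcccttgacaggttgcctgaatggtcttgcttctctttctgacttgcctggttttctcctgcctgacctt
Pnpla3: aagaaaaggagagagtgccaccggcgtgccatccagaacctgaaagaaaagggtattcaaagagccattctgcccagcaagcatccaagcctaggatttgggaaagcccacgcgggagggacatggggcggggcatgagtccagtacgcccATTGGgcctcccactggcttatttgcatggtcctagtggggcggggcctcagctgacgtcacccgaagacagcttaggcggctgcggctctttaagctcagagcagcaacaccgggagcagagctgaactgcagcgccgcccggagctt
Mlxipl: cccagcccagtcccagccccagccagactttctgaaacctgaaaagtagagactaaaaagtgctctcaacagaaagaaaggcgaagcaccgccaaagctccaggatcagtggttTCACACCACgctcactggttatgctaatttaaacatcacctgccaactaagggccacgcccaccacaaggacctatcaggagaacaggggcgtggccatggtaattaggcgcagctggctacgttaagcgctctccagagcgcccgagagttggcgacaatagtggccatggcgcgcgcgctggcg
The Acaca window held none of the 3 motifs, Acacb 1 CCAAT, Pnpla3 1 CCAAT on the other strand and Mlxipl 1 sterol element. Mlxipl had 2 windows, of which 1 is shown. Among list members not printed, Insig1, which was called higher, held 1 E-box and 1 CCAAT. The windows of Elovl5 and Slc25a1, also not printed, held 1 E-box each. Of 27025 RefSeq windows of the same length, 37.9% held a CCAAT, 7.24% the E-box and 1.22% the sterol element. No match says only that these letters are not in this window.

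The UMIs of the list in each nucleus came in good part from the carboxylases, and only these were called lower. After thinning each nucleus to 1500 UMIs, the median nucleus carried 13 UMIs of the 18 listed genes in C (quartiles 9 and 18) and 7 in CCH (5 and 10), with 31 and 28 shallower nuclei left out, and 0.0906% and 0.835% of nuclei had none. Before thinning, the summed level was 9418 CPM in C and 5108 in CCH, with 6028 in CC and 3868 in CCC. Acaca and Acacb, with the levels given above, made up most of the difference, so these sums do not describe the list as a whole, whose median log2 ratio was -0.12.

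Genes of triglyceride storage and release held few calls. In the triglyceride synthesis list 1 of 13 members was higher and none lower, against 3.32% and 1.55% of all genes. This was Dgat2, the acyltransferase of the last step, at 211 CPM in C and 714 in CCH (log2 1.76, 1.67 to 1.84). It was higher still in CC (1127 CPM) and CCC (1244), so CCH lay within the chow range. Dgat1, which catalyses the same step, was at 287 and 351 CPM. None of 6 lipid droplet genes was called: the coat protein Plin4 stood at 1099 CPM in C, 1086 in CC, 1370 in CCC, 1607 in CCH and 2224 in H (log2 0.55, 0.50 to 0.59), and Cidec, which fuses droplets, at 1365 and 1776 CPM. None of 11 lipolysis genes was called either, among them Lipe (974 and 949 CPM) and Pnpla2 (204 and 192 CPM), the hormone-sensitive and triglyceride lipases. The 11 fatty acid uptake genes, with a median log2 ratio of 0.21, held no call. Without the gene limit 1 lipolysis gene was lower, the lipase activator Abhd5 (438 and 212 CPM), and 1 uptake gene higher, the lipoprotein receptor Vldlr (22.7 and 48.3 CPM). Higher calls then rose to 2 in triglyceride synthesis, with Gpd1 (35.2 and 79.4 CPM), and to 2 in de novo synthesis, with the desaturase Scd2 (19.2 and 61.0 CPM). In fatty acid oxidation, 1 of 13 was higher within the limit, against 3.32% of all genes. This was the carnitine transferase Cpt1a, at 12.5 CPM in C and 29.2 in CCH with 32.1 and 35.3 in CC and CCC.

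The growth hormone axis was lower in CCH than in C in its receptor and targets. Of 7 tested genes 3 were lower, against 1.55% of all genes, and none was higher, with a list median of -0.14 on the log2 scale. Ghr, the receptor and the most abundant adipocyte marker, was at 32826 CPM in C and 15225 in CCH (log2 -1.11, -1.12 to -1.09). Igf1, the secreted target, was at 1944 and 673 CPM (log2 -1.53), and Cish, the feedback inhibitor that STAT5 switches on, at 196 and 59.6 CPM (log2 -1.72, -1.94 to -1.51). All 3 were lower again in the older chow libraries. Ghr was at 11020 CPM in CC and 11579 in CCC, Igf1 at 182 and 345, and Cish at 3.05 and 15.3. Against CC, CCH was thus higher in Cish by 4.29 on the log2 scale and in Igf1 by 1.88. The STAT5 genes themselves differed by 0.20 (Stat5a) and 0.29 (Stat5b).

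**Figure D2:**
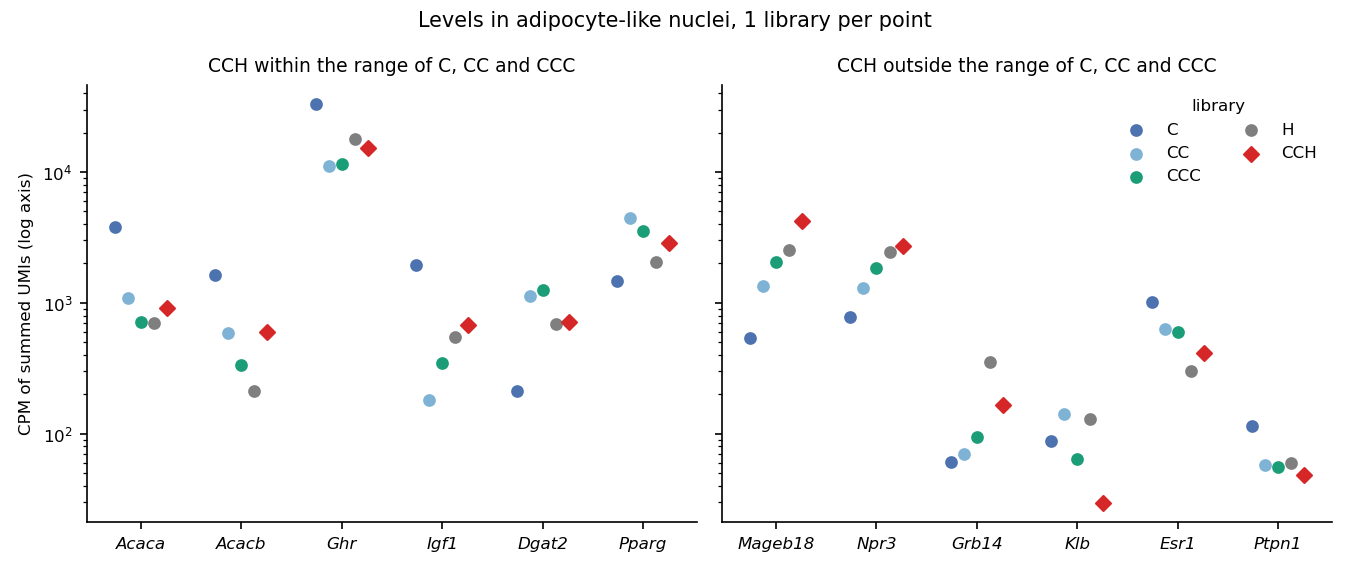
CPM of 12 genes in adipocyte-like nuclei on a log axis, 1 point per library, for C, CC, CCC, H and CCH (diamonds). In the left panel CCH lies within the range of C, CC and CCC, as for Acaca (3791 CPM in C, 915 in CCH), whereas in the right panel CCH lies beyond all 3 chow libraries, as for Mageb18 (4253 CPM in CCH). For Ptpn1, in the right panel, CCC is within counting error of CCH.

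In insulin signalling the adaptor and the phosphatase that restrain the receptor moved in opposite ways. Of 13 tested genes 1 was higher and 1 lower, against 3.32% and 1.55% of all genes. Without the gene limit none of the 13 was higher and 2 were lower. Grb14, an adaptor that inhibits the insulin receptor, was at 60.4 CPM in C, 70.3 in CC, 94.5 in CCC, 166 in CCH and 354 in H (log2 CCH over C 1.46, 1.29 to 1.62). Without the gene limit it was at 62.2 and 117 CPM, a log2 ratio of 0.92 that no longer reached 2-fold. Ptpn1, the phosphatase PTP1B, was at 115 CPM in C, 57.2 in CC, 55.7 in CCC, and CCH had 48.1 (log2 -1.25, -1.5 to -1.0). The Ptpn1 level of CCC was within counting error of CCH. Pik3r1, a regulatory subunit of PI3 kinase, stood at 3324 and 1677 CPM (log2 -0.99), just short of the limit, with 1382 in CC and 834 in CCC. Insr, Akt2 and the glucose transporter Slc2a4 differed by 0.10, 0.21 and -0.01.

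Among 9 adipokines, 2 were higher and 1 lower, against 3.32% and 1.55% of all genes. Rbp4, the retinol carrier, was at 19.3 CPM in C and 69.0 in CCH, within 63.0 to 78.6 in CC and CCC. Rarres2, the chemerin gene, was at 27.1 CPM in C, 38.9 in CC, 71.0 in CCC, and CCH had 55.0. Agt, the angiotensin precursor, was at 51.0 CPM in C, 32.3 in CC, 14.3 in CCC, and CCH had 8.82 (log2 -2.53, -3.1 to -2.0), below all chow libraries. Leptin, Lep, a measure of fat stores, was at 132 and 255 CPM (log2 0.95, 0.82 to 1.07), and at 293 and 475 CPM in CC and CCC. With no gene limit 2 adipokines were higher and 2 lower. Lep then passed 2-fold (146 and 348 CPM, log2 1.25), as did Cfd, adipsin, on the lower side (510 and 152 CPM, log2 -1.75), and Rarres2 did not (25.7 and 35.9 CPM, log2 0.48). No member of the 12 adipogenic transcription factors was called. Pparg, their master regulator, was at 1473 CPM in C, 2879 in CCH (log2 0.97, 0.93 to 1.00), 4422 in CC and 3563 in CCC.

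In the extracellular matrix list, 4 of 12 members were higher and none lower, against 3.32% of all genes, with a median of 0.65 on the log2 scale. Without the gene limit 3 of 11 were higher and the median was 0.39, next to 0.40 for the lipid droplet list. Col5a3, a chain of collagen V, was at 51.0 CPM in C, 140 in CC, 175 in CCC, 206 in CCH and 329 in H (log2 2.02, 1.86 to 2.18), and Col6a1 at 6.93, 38.4, 52.2, 34.4 and 88.8 CPM in the same order. Fn1, fibronectin, was at 34.7 and 102 CPM, but mesothelial-like nuclei of CCH held 182, so that adipocyte RNA cannot be told apart from free RNA there. Against CCC the median of the list turned to -0.34. In 5 tested genes of hypoxia and vascular growth, 1 was lower, against 1.55% of all genes. This was the vessel-stabilising ligand Angpt1, at 1494 CPM in C, 396 in CC, 93.2 in CCC, and CCH had 382. Of 11 lysosome genes 1 was higher, against 3.32% of all genes, the protease Ctsd (35.1 and 72.1 CPM). Without the gene limit Ctsd was at 33.8 and 48.0 CPM, below 2-fold, and the 1 call among them was lower, Mitf, a transcription factor of lysosomal genes (594 and 279 CPM).

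**Figure D3:**
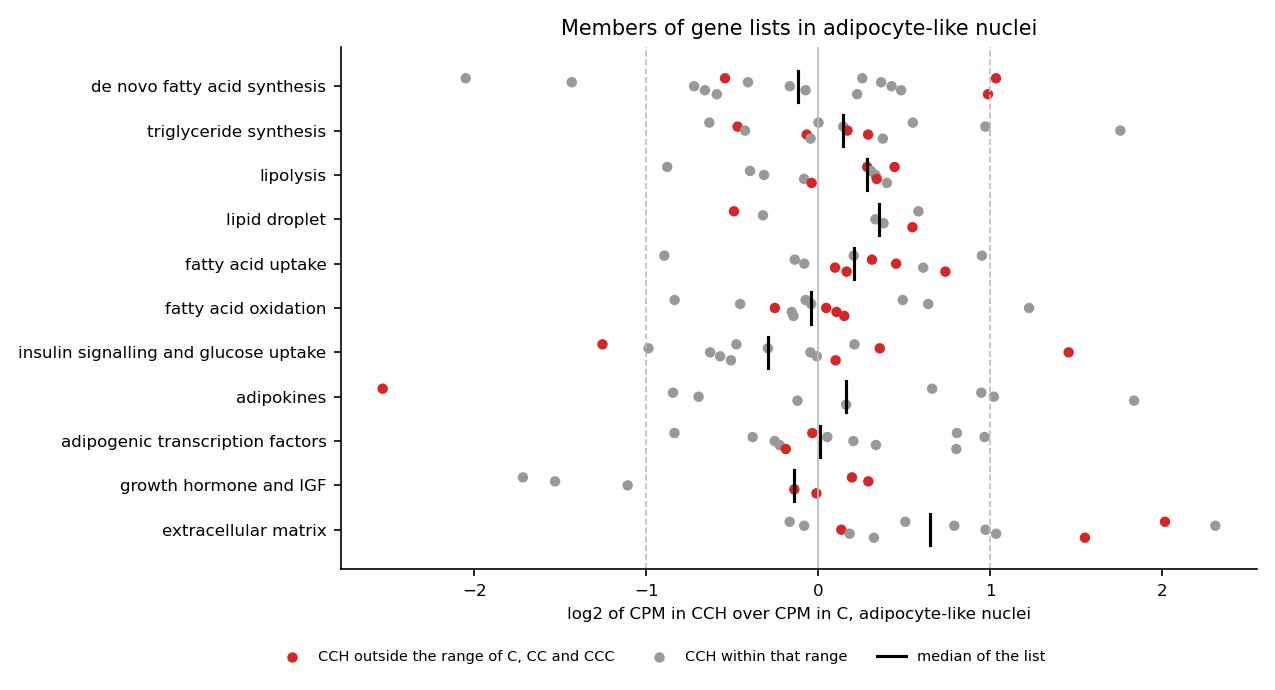
Log2 ratio of CPM in CCH over C for every tested member of 11 gene lists in adipocyte-like nuclei, 1 point per gene, with the list median as a bar and the 2-fold limits dashed. Most points lie between the dashed lines, and within the gene limit, as plotted, the extracellular matrix has a median of 0.65, against 0.39 without that limit.

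The genes that separated CCH from all 3 chow libraries included Mageb18, which had the largest ratio, and Npr3. Mageb18, an X-linked gene of the MAGE family (chromosome X, 92118879 to 92599572), was at 4253 CPM in CCH, 539 in C, 1345 in CC and 2057 in CCC, with 2533 in H and 2940 in HCH (log2 2.98, 2.94 to 3.02), the highest of the 9 libraries. Its level without the gene limit was 734 and 7343 CPM. Npr3, the clearance receptor that removes lipolytic natriuretic peptides, was at 777 CPM in C, 1305 in CC, 1849 in CCC, and CCH had 2724 (log2 1.81, 1.77 to 1.85). Fads3, of the fatty acid desaturase family, was at 67.3 and 210 CPM, with 124 in CC and 207 in CCC, the latter within counting error of CCH, and Dpysl3, a cytoskeletal protein, at 18.2 and 112 CPM, below the 104 and 132 CPM of mesothelial-like nuclei, so that it cannot be told apart from free RNA there. The chaperone genes Hspa4l (40.6 and 110 CPM) and Hsph1 (38.2 and 99.1 CPM) were higher in CCH than in any other library, and HCH, with the same last 4 weeks of HFD, had 33.2 and 24.7. Hspa4l was higher still in mesothelial-like nuclei (72.5 and 124 CPM), so that its adipocyte values cannot be told apart from free RNA.

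On the lower side of the same rule, Klb, the beta-Klotho co-receptor for FGF21, was at 88.7 CPM in C, 142 in CC, 64.0 in CCC, and CCH had 29.8 (log2 -1.57, -1.89 to -1.27), the lowest of the 9 libraries. Esr1, the oestrogen receptor alpha, was at 1019 CPM in C, 632 in CC, 595 in CCC, 412 in CCH and 301 in H (log2 -1.31, -1.39 to -1.23). Iigp1, an interferon-induced GTPase and the lowest in ratio (log2 -5.20), was at 146 CPM in C and 3.95 in CCH, with 11.2 and 9.55 in CC and CCC, so that C was the outlying chow library. Slc39a14, a zinc and iron importer, was at 90.1 and 12.5 CPM, Rnf144b at 261 and 57.2, and Gas6, a ligand of the TAM receptors, at 141 and 42.9. Slc8a1, the sodium-calcium exchanger, was at 349 and 140 CPM, and Dab2, an endocytic adaptor, at 87.2 and 37.1. Phkg1, Dennd2a and Galnt10 were lower by 1.69, 1.62 and 1.36 on the log2 scale, but Phkg1 was at 82.4 CPM in CCH (72.9 to 92.8) and 83.4 in CCC, within counting error. Mesothelial-like nuclei of C and CCH held more of Gas6 (664 and 433 CPM), Dab2 (393 and 626) and Slc8a1 (568 and 583) than the adipocyte class did, and those of CCH also more of Esr1, Iigp1, Slc39a14 and Rnf144b. Without the gene limit Esr1 was at 1021 and 428 CPM, Klb at 85.0 and 26.9 and Iigp1 at 142 and 2.81.

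Some genes of other cells also appeared in this class. Ighm, the immunoglobulin heavy chain of B cells, was at 65.5 CPM in C and 179 in CCH, and B cell-like nuclei were 4.63 times as frequent in CCH. Retnla, the secreted resistin-like molecule alpha, was at 23.5 and 111 CPM, under its level in mesothelial-like nuclei (62.4 and 200), and is described with the macrophages. A gene at or below its level in a class that should lack it cannot be told from free RNA. The part of other cells in these values was not tested.

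In progenitor-like nuclei, some genes of the matrix and of the fibro-inflammatory kind were higher in CCH than in C. Of 6777 genes tested, 61 (0.9%) were higher and 72 (1.06%) lower, and 44 and 49 of these lay beyond both older chow libraries as well. The fibro-inflammatory progenitor list, which also helped to name the kind, had 4 of 11 members higher and none lower, with a median log2 ratio of 0.59. Cd55, a complement regulator, was at 304 CPM in C, 168 in CC, 302 in CCC, and CCH had 835 (log2 1.46, 1.38 to 1.54). Sema3c, a guidance ligand, was at 490 and 1087 CPM, and Dpp4, the surface peptidase of this kind, at 203 CPM in C, 167 in CC, 197 in CCC, and CCH had 431. All of these stood above H too, where Cd55 was at 385 CPM, Sema3c at 364 and Dpp4 at 174.

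Matrix genes followed. In the list of matrix proteases and crosslinking, 4 of 14 were higher, against 0.9% of all genes, and none lower, with a list median of 0.14 on the log2 scale. Fbn1, the microfibril protein fibrillin, was at 1116 CPM in C, 816 in CC, 1182 in CCC, and CCH had 2514 (log2 1.17, 1.13 to 1.21). Postn, periostin, was at 39.4, 24.2, 34.2 and 136 CPM in the same order, and 781 in H. Adamts5, an aggrecan-cleaving protease, was at 549 and 1104 CPM and Fn1 at 450 and 967. Of 14 collagens 2 were called higher, beside the same background of 0.9%, Col1a1 (35.8 and 74.5 CPM) and Col12a1 (14.2 and 32.1), and the list median was 0.59. Col3a1 was at 462 CPM in C, 886 in CCH and 3341 in H (log2 CCH over C 0.94). Against CCC the median of the collagens was -0.04, and CCC held 79.1 CPM of Col1a1. Among genes with a mean CPM of at least 50 whose CCH level lay beyond CC and CCC, Aspn and Col8a1 were named for the largest ratios. Aspn, asporin, a small proteoglycan of the matrix, was at 33.5 CPM in C, 28.3 in CC, 50.0 in CCC, and CCH had 164 (log2 2.29, 2.07 to 2.52). The collagen Col8a1 was at 59.1, 52.9, 128 and 222 CPM. Adamts16 was at 26.8 and 88.3 CPM.

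Fibro-inflammatory nuclei were more frequent in CCH, and several of the genes with the largest ratios were higher within each kind. The fibro-inflammatory kind was 18.20% of progenitor-like nuclei in C and 23.32% in CCH, 5.12 points more (2.64 to 7.61), with 18.20% as the highest of the chow libraries. Within it, Aspn was higher by 1.88 on the log2 scale (1.54 to 2.24), Cd55 by 1.15, Fbn1 by 0.88 and Col8a1 by 2.55. In the other progenitor-like nuclei (1843 in C and 1447 in CCH), the same genes were higher by 2.44, 1.47, 1.18 and 1.82. Sned1, a matrix glycoprotein, was the reverse, at 273 CPM in C, 406 in CC, 413 in CCC, and CCH had 95.9 (log2 -1.51), and lower in both kinds, by -2.72 and -1.29.

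**Figure D4:**
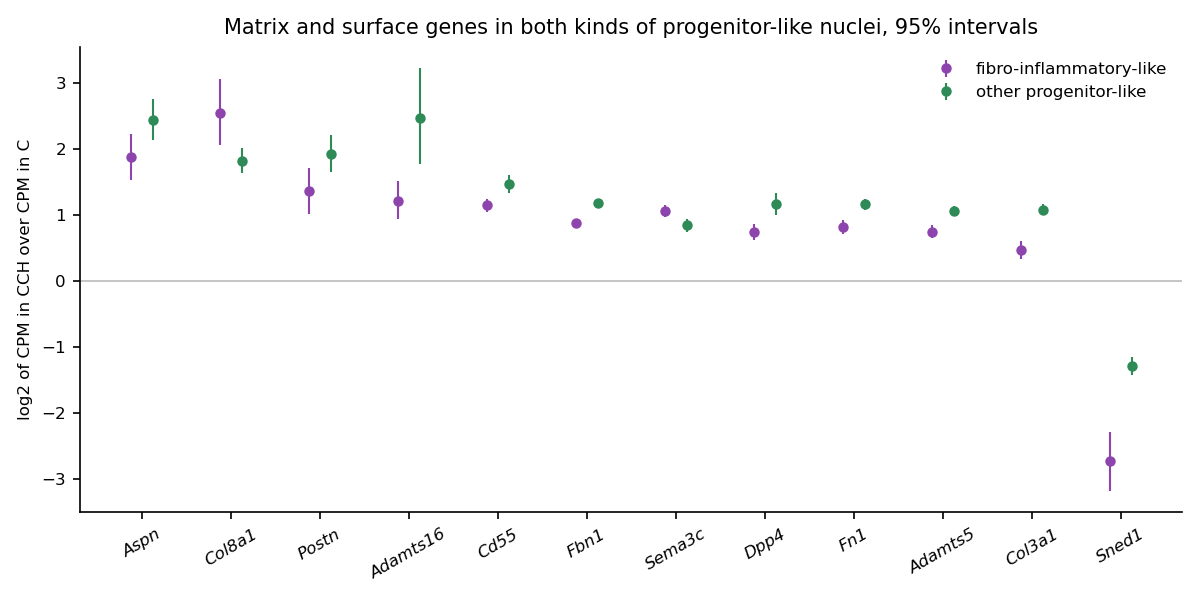
Log2 ratio of CPM in CCH over C for 12 genes in fibro-inflammatory-like and in other progenitor-like nuclei, with exact 95% intervals as bars. All but Sned1 lie above 0 in both kinds, with Aspn at 1.88 and 2.44.

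Programmes of adipocyte formation and inflammation held no calls in progenitors: 0 of 12 adipocyte commitment genes (median log2 -0.02) and 0 of 7 inflammatory genes (-0.19). Ccl2, the monocyte chemoattractant, was at 24.1 CPM in C, 26.1 in CCH and 80.0 in H. In the TGF-beta, BMP and Wnt list only Sfrp4, a secreted Wnt inhibitor, was called among 11 genes, at 21.8 and 63.8 CPM. Of all genes in this class, 0.9% were higher.

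Macrophage-like nuclei were more frequent in CCH, and no gene of the lipid-associated list was called. Of 6503 genes tested, 54 (0.83%) were higher and 116 (1.78%) lower, of which 28 and 67 lay beyond both older chow libraries. In the lipid-associated list 0 of 13 tested genes were called, with a median log2 ratio of 0.29, or -0.41 with CCC as the control. Gpnmb, a lysosomal glycoprotein, was at 55.6 CPM in C, 16.4 in CC, 127 in CCC, and CCH had 45.9, whereas H had 2727 and HCH, after the same 4 weeks of HFD, 1289. The elastase Mmp12 was at 48.4 CPM in C, 72.2 in CCH, 4137 in H and 927 in HCH. Trem2, the lipid receptor that defines the kind, was at 9.57 CPM in C and 14.6 in CCH (32 and 71 UMIs), under the filter of 20 CPM. Nuclei of the lipid-associated kind were 3.86% of macrophage-like nuclei in C and 5.25% in CCH, a difference of 1.39 points (-0.11 to 2.91). Of all nuclei they were 0.539%, the highest of the chow libraries, and 1.14%, a difference of 0.602 points (0.329 to 0.905). Within these 57 and 80 nuclei, the log2 ratio of Gpnmb was -0.67 (-0.97 to -0.36). The perivascular kind was 36.02% and 35.59% of macrophage-like nuclei, and the non-perivascular kind 40.62% and 41.76%.

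The resident and antigen-presenting programmes were near those of C. Of 12 perivascular genes 1 was lower, against 1.78% of all genes. This was Timd4, the phosphatidylserine receptor of long-lived resident macrophages, at 177 CPM in C, 169 in CC, 112 in CCC, 88.4 in CCH and 9.35 in H. The scavenger receptors Mrc1 (3088 and 2795 CPM) and Cd163 (1002 and 959 CPM) differed by less. The 7 MHC class II genes were all above C by 0.20 to 0.82 on the log2 scale and none was called, and CCC exceeded CCH in each of Cd74, H2-Aa and H2-Ab1. Of 6 monocyte recruitment genes 1 was higher and none lower, against 0.83% and 1.78% of all genes. This was Ccr2, the receptor that draws monocytes from blood, at 21.8 CPM in C, 19.6 in CC, 44.9 in CCC, and CCH had 63.3 (log2 1.54, 1.16 to 1.93). It was highest in ratio in the non-perivascular nuclei, at 13.2 and 84.0 CPM (log2 2.66, 1.92 to 3.51), where CCC had 69.6. Neither the NF-kB list (7 tested genes) nor the lysosome list (15 tested genes) held a called gene.

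Retnla was among the higher macrophage genes. It stood at 184 CPM in C, 187 in CC, 173 in CCC, 542 in CCH, 406 in HCH and 49.7 in H (log2 CCH over C 1.56, 1.43 to 1.69), and was higher by 1.55 in perivascular, 1.78 in non-perivascular, 1.48 in lipid-associated and 1.34 in the remaining nuclei. Tfrc, the transferrin receptor that imports iron, was at 189 CPM in C, 210 in CC, 304 in CCC, and CCH had 406, and higher by 1.13 and 1.25 in the perivascular and non-perivascular kinds. Fn1 was at 174 and 451 CPM and Adgre4, an adhesion receptor of the F4/80 family, at 42.8 and 106.

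Itga6 and Ltbp1, by contrast, belonged to 1 small cluster. Itga6, an integrin subunit, was at 33.2 CPM in C and 110 in CCH, and Ltbp1, which binds latent TGF-beta, at 51.7 and 149. A macrophage-like cluster led by Alox15, Prg4, F5 and Serpinb2, singled out after its values were seen, held 12 of 10577 nuclei in C (0.113%, 0.0586 to 0.198) and 52 of 7009 in CCH (0.742%, 0.555 to 0.972), a difference of 0.628 points (0.433 to 0.863). The other 7 libraries held 0.136% to 0.319%. Within that cluster Retnla was at 193 and 213 CPM (7 and 43 UMIs), Itga6 at 1461 and 2117 and Ltbp1 at 2481 and 3213. With the cluster left out, Itga6 stood at 17.5 CPM in C and 23.4 in CCH and Ltbp1 at 25.1 and 16.5, so neither was called, while Retnla (log2 1.60), Fn1 (1.34), Tfrc (1.14), Adgre4 (1.20) and Ccr2 (1.57) stayed at least 2-fold higher.

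**Figure D5:**
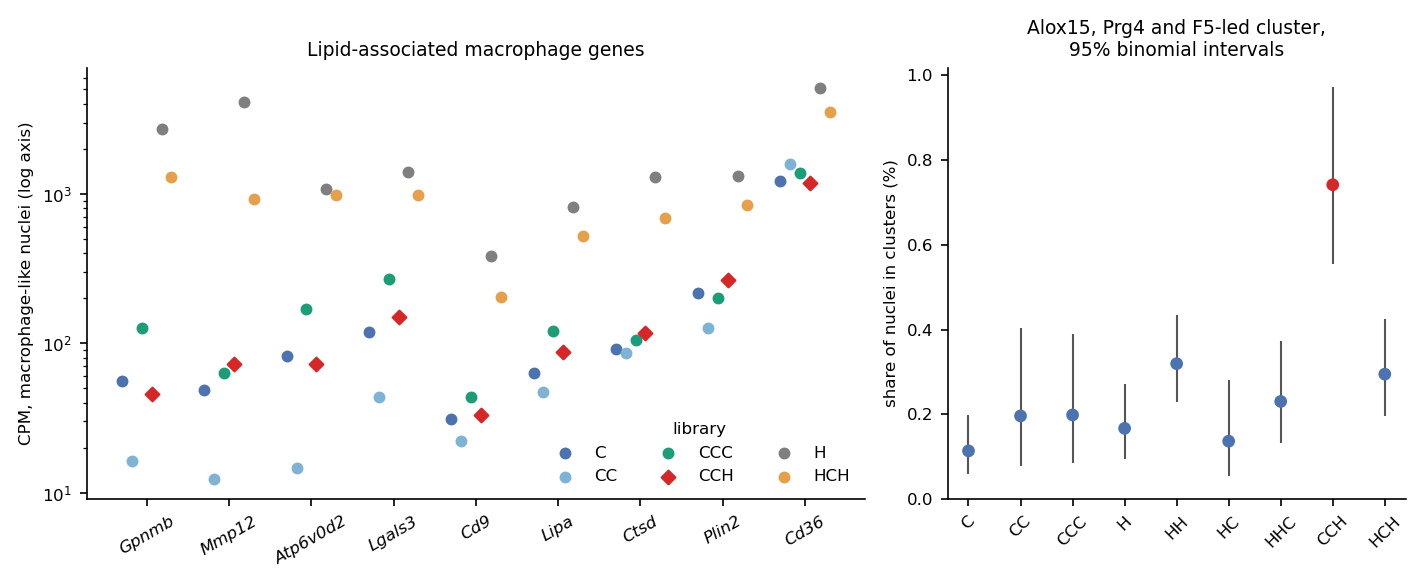
Left, CPM of 9 lipid-associated macrophage genes in macrophage-like nuclei of C, CC, CCC, CCH (diamonds), H and HCH on a log axis. Right, share (%) of nuclei in the cluster led by Alox15, Prg4 and F5 in all 9 libraries with 95% binomial intervals; CCH lies among the chow libraries on the left for Gpnmb (45.9 CPM) and above every library on the right (0.742%).

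On the lower side, most named macrophage genes were genes of other classes. Ghr was at 1372 CPM in C and 453 in CCH, Slc1a3, a glutamate transporter that was at 4236 CPM in adipocyte-like nuclei of C, at 156 and 33.9, Dmd, dystrophin, at 92.1 and 19.5, Tshz2 at 142 and 44.6 and Enpp2 at 73.8 and 28.2. All of these were higher in mesothelial-like nuclei of both libraries than in macrophages (Tshz2 at 2257 and 1775 CPM). The summed adipocyte markers in macrophage-like nuclei, which include Ghr, were at 2801 and 1607 CPM, and the part of free RNA in these lower genes was not tested.

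In endothelial-like nuclei the fatty acid transport list had the highest median of the lists fixed for this class, 0.61 on the log2 scale, with 1 of 12 genes called. Of 6873 genes tested, 165 (2.4%) were higher and 113 (1.64%) lower, of which 50 and 75 lay beyond both older chow libraries. Fabp5, a fatty acid binding protein, was at 11.1 CPM in C and 41.3 in CCH (log2 1.90, 1.21 to 2.64), Lpl at 432 and 846, and Fabp4 at 1291 and 2226. The older chow libraries exceeded CCH in Fabp4 (8034 and 7246 CPM) and Fabp5 (75.2 in CC). In endothelial-like nuclei of CC the summed adipocyte markers were at 6517 CPM, 28.1% of the level in its adipocyte-like nuclei. This part was 7.41% in C, 8.63% in CCH and 12.4% in CCC. Of the summed markers in endothelial-like nuclei, Ghr made up 2144 of 3435 CPM in C and 1252 of 2405 in CCH. The part of free RNA in the chow values was not tested. Icam1, the leukocyte adhesion molecule, was lower, at 186 CPM in C, 17.7 in CC, 54.1 in CCC, and CCH had 81.3, the only call among 9 adhesion genes, and Vegfa was the only call among 11 vascular growth genes (99.5 and 48.3 CPM). By the naming rule the higher genes were Retnla, Hs3st5, Morrbid, Cmah, Itgbl1 and Hsph1, with log2 ratios of 1.26 to 1.59. The lower ones were Ank3, C7, Igf1, Rbm47, Egfr and Acaca, with -2.75 to -1.56, and Igf1 (199 and 55.9 CPM) and Acaca (349 and 118) were also lower in adipocyte-like nuclei. Mesothelial-like nuclei of CCH held more of Igf1 (95.8 CPM), Rbm47 (53.8 against 37.5) and Ank3 (20.5 against 15.2) than the endothelial-like class did. The part of free RNA in these lower genes was not tested.

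In mesothelial-like nuclei, none of 10 identity genes and none of 5 inflammatory genes was called. Of 7276 genes tested, 57 (0.783%) were higher and 120 (1.65%) lower, and 32 and 100 of these lay beyond both older chow libraries. Nupr1, a stress-induced nuclear protein, was at 22.6 CPM in C, 23.3 in CC, 41.2 in CCC, 90.7 in CCH and 153 in H (log2 ratio 2.0, 1.5 to 2.5). Bdnf, a neurotrophin, was at 29.7 and 103 CPM, and Itgbl1, an integrin beta-like protein, at 311 CPM in C, 298 in CC, 431 in CCC, 905 in CCH and 925 in HCH. Ptprq and Parm1 were at 136 and 362 CPM and at 55.9 and 136. The globin genes Hbb-bs (305 and 35.3 CPM) and the near-identical Hba-a1 and Hba-a2 (144 and 15.9, 114 and 15.4), whose reads can be split between copies, were lower. These are genes of red blood cells, and their source here was not tested.

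Across classes, few genes were called in all 5, and more in 2 to 4. Of 4779 genes tested in all 5 classes, 4 were at least 2-fold higher in each (Adamts5, Lyz2, Mageb18 and Retnla) and 3 lower (Ank3, Cyp2e1 and Slc1a3). A further 11, 7 and 4 were higher in 2, 3 and 4 classes, and 27, 17 and 9 lower, beside 101 and 130 in 1 class only. Higher in 4 were Fn1, Ighm, Lep and Retn, and lower in 4 Acacb, Fam13a, Igf1, Iigp1, Nabp1, Pcx, Prdm10, Rbm47 and Zbtb16. In C, Iigp1 and Prdm10 were highest in endothelial-like nuclei and the other 7 of these lower genes in adipocyte-like nuclei. The part of free RNA was not tested. Mageb18, at 4253 CPM in adipocyte-like nuclei of CCH, was at 199 to 233 CPM in the other 4 classes. Those classes had 46.6 to 61.4 CPM in C, 116 to 271 in CCC and 370 to 398 in CC, so CC exceeded CCH there. Slc1a3 was likewise highest in adipocyte-like nuclei. For Retnla, all 5 classes of CCH exceeded all 3 chow libraries. Lyz2, the macrophage lysozyme, was at 87.6 CPM in macrophage-like nuclei of C and 248 in both CCC and CCH, and at 18.1 and 78.9 in mesothelial-like ones.

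Several glucocorticoid response genes were lower in CCH than in C. In macrophage-like nuclei 4 of 10 glucocorticoid response genes were lower, against 1.78% of all genes, and none was higher (median log2 -0.91). Fkbp5, a glucocorticoid-induced chaperone, was at 1879 CPM in C, 550 in CC, 338 in CCC, and CCH had 718, so that C alone was high. Progenitor-like nuclei had 2 of 10 lower, against 1.06% of all genes (median -0.87), and with CCC as the control the medians were 0.18 in macrophage-like and 0.037 in progenitor-like nuclei. Lower in progenitor-like nuclei were Zbtb16, at 2018, 1816, 1550 and 892 CPM in the order C, CC, CCC and CCH, and Errfi1 at 1014, 361, 405 and 416. The receptor Nr3c1 itself was higher by 0.53 and 0.50 on the log2 scale in the 2 classes. Lower calls of this list were not particular to them. Adipocyte-like nuclei had 2 of 11 lower (3 of 9 without the gene limit), endothelial-like nuclei 2 of 10 and mesothelial-like nuclei 2 of 11. Of all genes, 1.55%, 1.64% and 1.65% were lower in these classes. No listed gene was higher there, and the medians were -0.35, -0.29 and -0.66. Few clock genes were called, and those that were called were lower. In adipocyte-like nuclei it was 2 of 10 (1 without the gene limit), with a list median of 0.0087 on the log2 scale, in macrophage-like nuclei 1 of 9 (Per1, log2 -1.11), in endothelial-like nuclei 1 of 10 (Arntl, 33.6 and 15.2 CPM), and progenitor-like and mesothelial-like nuclei had no call. The shares of all genes called lower were 1.55% in adipocyte-like, 1.78% in macrophage-like and 1.64% in endothelial-like nuclei. In adipocyte-like nuclei Arntl, the core activator, was at 60.0 CPM in C, 62.6 in CC, 40.7 in CCC, and CCH had 20.4 (log2 -1.56). The hour at which tissue was taken was not analysed here. No interferon-stimulated gene was called in any of the 5 classes among the 2 to 5 tested of a list of 14, which does not hold Iigp1. The list medians (log2) were -0.56 in adipocyte-like, -0.43 in progenitor-like, -0.60 in macrophage-like, 0.013 in endothelial-like and -0.24 in mesothelial-like nuclei. Besides adipocyte-like nuclei, Iigp1 was lower in progenitor-like (-1.97), macrophage-like (-2.24) and mesothelial-like nuclei (-1.96), and not called in endothelial-like ones (-0.12). In each class CC and CCC were also below C in Iigp1. Immediate early genes, which respond to handling of tissue, held 1 call among 6 in progenitor-like nuclei (Jun, 22.2 and 48.1 CPM), 1 among 5 in endothelial-like (Zfp36, 56.2 and 24.8 CPM) and 1 among 8 in mesothelial-like nuclei (Egr1, 77.0 and 16.4 CPM). Of all genes, 0.9% were higher in progenitor-like, 1.64% lower in endothelial-like and 1.65% lower in mesothelial-like nuclei. Of the cell cycle list 2 genes could be tested in progenitor-like nuclei, and 1 was higher (Diaph3, 18.5 and 38.1 CPM).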

How the data were processed

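Epididymal adipose nuclei of 9 libraries were profiled by droplet 3' RNA sequencing. The deposited matrices held whole UMI counts per gene and barcode, not normalised by the authors. The submitters' processing notes name Cell Ranger 6.1.2, Seurat 4.1.0 and mm10. The limits on genes and UMIs followed the methods of the study. Scrublet, as implemented in scanpy 1.11.5, was run on each library before the upper gene limit, and the doublets removed were 6.79% of C and 6.68% of CCH. In CC and CCC, where its automatic threshold marked almost none, nuclei with the highest scores were removed up to an expected rate. Clusters of low UMIs with markers of 2 classes were then set apart (4.10% of C and 0.694% of CCH). The 9 libraries were clustered together (leidenalg 0.10.2) after an own implementation of the Harmony correction, and clusters were named from fixed markers. Counts were summed per class and library. CPM ratios carry exact conditional intervals (SciPy 1.17.1), and recovery of known fold changes was tested on simulated data.

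With 1 library on each side no test was possible. The genes named were those with the largest ratios among genes with a mean CPM of at least 50 whose level in CCH also lay beyond CC and CCC, 12 each way in adipocyte-like nuclei and 6 each way in the other 4 classes, with called or abundant members of the gene lists. Other list members were named, for their function, after their values were seen, and some genes that the rule takes are not reported here. The members and lists were chosen with earlier results of these data known. The control CCC was added after the data were seen. Other alternatives were the clustering and filter settings, the control CC, the call limits, subtraction of another class and TMM scaling (edgeR 4.0.16).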

Additional observations from a re-analysis of the deposited data

How the results depend on the processing

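Nuclei, not mice, set the intervals, and age, chow and diet cannot be told apart. No paired analysis was possible because each group was 1 library. With no upper limit on genes, the differences in share were -0.454 points for adipocyte-like, 4.23 for macrophage-like and 2.41 for progenitor-like nuclei, and 146 adipocyte genes were lower instead of 97. With no library correction the difference in adipocyte-like share of nuclei was -14.2 points and the difference in macrophage-like share of nuclei 11.6.

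With CC as the control, the differences in share were -16.2 (adipocyte-like), 10.4 (macrophage-like) and 3.15 points (endothelial-like, reversed within the gene limit, with 9.51% in CC and 6.78% in CCH when it was not applied), with 5.25 for lipid-associated and 10.5 for fibro-inflammatory kinds. Calls (higher, lower) were 283 lower in adipocyte-like, 262 and 548 in progenitor-like, 217 and 634 in macrophage-like, 586 and 632 in endothelial-like and 368 and 504 in mesothelial-like nuclei. Medians became 0.30 for insulin signalling and 1.28 for the fibro-inflammatory list. Log2 ratios that reversed were, in adipocyte-like nuclei, Acacb 0.024, Dgat2 -0.66, Cpt1a -0.14, Ghr 0.47, Igf1 1.88, Cish 4.29, Col5a1 -0.36 and Col6a1 -0.16. In other classes they were Errfi1 0.20 (progenitor-like and mesothelial-like), Fkbp5 0.38 (macrophage-like) and 0.55 (endothelial-like), Fabp5 -0.87 and Icam1 2.20.

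With CCC, added after seeing the data, they were 13.1 (macrophage-like), 11.2 (progenitor-like), 5.34 (endothelial-like, reversed) and 11.8 points (fibro-inflammatory). In CCC 26.5% of nuclei were set apart and 25.2% of the rest had no class name. With clusters made before the gene limit, CCC held 24.3% progenitor-like and 5.73% endothelial-like nuclei within it, nearer to the 26.9% and 8.44% of CCH. Calls were 106 and 524 in adipocyte-like, 108 and 250 in progenitor-like, 88 and 241 in macrophage-like, 355 and 441 in endothelial-like and 190 and 422 in mesothelial-like nuclei. Medians became -0.34 (extracellular matrix), -0.043 (collagens), -0.41 (lipid-associated), -0.46 (MHC class II), and 0.037 and 0.18 for glucocorticoid genes in progenitor-like and macrophage-like nuclei. In adipocyte-like nuclei Acaca 0.35, Acacb 0.86, Dgat2 -0.80, Cpt1a -0.28, Rbp4 -0.19, Rarres2 -0.37, Ghr 0.39, Igf1 0.97, Cish 1.964, Col5a1 -0.98, Col6a1 -0.60, Angpt1 2.03 and Fkbp5 0.38 reversed. So did Col1a1 -0.086, Errfi1 0.037 and Jun -0.47 in progenitor-like, Per1 0.57, Fkbp5 1.09 and Klf9 0.18 in macrophage-like, and Fabp5 -0.86, Vegfa 0.53, Icam1 0.59 and Fkbp5 0.69 in endothelial-like nuclei. The cause was not tested.

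With the level in another class subtracted, adipocyte-like calls were 321 and 149, progenitor-like 181 and 151, macrophage-like 188 higher and mesothelial-like 233 higher. The growth hormone median was then -1.12, instead of -0.14 without subtraction. At 1.5-fold they were 619 and 309, 259 and 306, 235 and 345, 542 and 393, and 277 and 514 in adipocyte-like, progenitor-like, macrophage-like, endothelial-like and mesothelial-like nuclei. With a mean CPM of at least 100 they were, in the same order, 43 and 40, 20 and 15, 10 and 24, 21 and 18, and 17 and 17. Of 1117 gene values over these settings, 1080 kept their direction and 37 reversed, 14 of 114 against CC and 23 of 111 against CCC. These genes were picked for a ratio of at least 2-fold or by the naming rule. That rule already required CCH to lie beyond CC and CCC, so its genes could not reverse against them. The counts therefore do not measure how stable directions are. TMM shifted log2 ratios by -0.14 to 0.07.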

Other observations

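Nuclei in clusters with no class name also differed. A cluster led by Klra2, Ccr2 and Cd226 held 2.77% of nuclei in C, the highest of the chow libraries, and 6.25% in CCH, a difference of 3.48 points (2.84 to 4.14). A cluster led by the mitotic genes Top2a and Kif11 held 0.407% and 0.813%, 0.407 points more (0.174 to 0.6674). A cluster led by genes of cilia held 2.51% of C, 0.671% of CCH and 23.2% of CCC. These leading genes were seen in the data before the clusters were described.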
